A study of Homo sapiens with 10 samples.

Results

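Sterol regulatory element-binding proteins (SREBPs) and the genes around them were followed through 9 transcripts. They are the SREBP genes SREBF1 and SREBF2, their escort SCAP, their retention factors INSIG1 and INSIG2, the sterol carrier STARD4, and the lipogenic enzymes FASN, SCD and ACACA. They were listed by name, with no threshold on a value but with earlier results of these data known. Each was matched through its RefSeq accession to 1 transcript that was listed in all 10 libraries, so they make up 9 of 24994 features. The study sequenced polyadenylated RNA of HEK293, a human cell line from embryonic kidney, grown in medium with serum. In 4 groups of 2 libraries, replicates A and B, the cells were untreated (no added nucleoside, no crosslinking), fed 4-thiouridine (4SU) without crosslinking, fed 4SU and crosslinked with 365 nm light, or crosslinked with 254 nm light without 4SU. The 4SU was at 1 mM for the last 12 to 14 h before harvest, and no transfection was made in these 4 groups. The other two groups were 1 library each of cells transfected with an siRNA against GFP or against HuR, the RNA-binding protein encoded by ELAVL1, without 4SU or crosslinking.

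SREBPs are transcription factors that are made as membrane proteins of the endoplasmic reticulum. When membrane sterol is low, SCAP escorts them to the Golgi, where proteases release the part that enters the nucleus, and when sterol is high, an INSIG protein holds SCAP back. SREBF2 encodes the form best known for sterol synthesis and uptake genes and SREBF1 the forms best known for fatty acid genes, and INSIG1 and STARD4 are themselves known SREBP targets.

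The 250 bases before the start of the transcript are shown for SREBF2, INSIG1, STARD4 and SCD, because INSIG1, STARD4 and SCD are the members called between untreated cells and cells given 4SU and 365 nm light, and because the SREBF2 window alone held the sterol regulatory element searched for. The sequences are RefSeq's for the human build GRCh38.p14, printed 5′ to 3′ on the strand of the gene. Capitals mark matches, on either strand, to the sterol regulatory element TCACNCCAC, the E-box CACGTG and the NF-Y box CCAAT, and these matches do not overlap one another.
SREBF2, chr22:41832855-41833104, plus strand: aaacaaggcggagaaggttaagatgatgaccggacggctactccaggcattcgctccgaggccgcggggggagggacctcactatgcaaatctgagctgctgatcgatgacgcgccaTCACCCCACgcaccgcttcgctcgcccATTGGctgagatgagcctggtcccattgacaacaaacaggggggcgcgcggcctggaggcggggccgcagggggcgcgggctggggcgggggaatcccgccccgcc
INSIG1, chr7:155297628-155297877, plus strand: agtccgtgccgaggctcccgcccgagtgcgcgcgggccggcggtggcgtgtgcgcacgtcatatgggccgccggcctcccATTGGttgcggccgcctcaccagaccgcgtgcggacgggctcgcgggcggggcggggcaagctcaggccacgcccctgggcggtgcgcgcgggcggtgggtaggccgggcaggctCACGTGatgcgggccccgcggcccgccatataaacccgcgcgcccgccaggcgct
STARD4, chr5:111512536-111512785, minus strand: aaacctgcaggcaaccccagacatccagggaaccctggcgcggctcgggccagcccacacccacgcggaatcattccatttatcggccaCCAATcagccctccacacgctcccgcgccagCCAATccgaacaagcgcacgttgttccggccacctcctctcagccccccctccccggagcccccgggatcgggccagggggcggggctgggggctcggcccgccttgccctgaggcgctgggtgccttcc
SCD, chr10:100346983-100347232, plus strand: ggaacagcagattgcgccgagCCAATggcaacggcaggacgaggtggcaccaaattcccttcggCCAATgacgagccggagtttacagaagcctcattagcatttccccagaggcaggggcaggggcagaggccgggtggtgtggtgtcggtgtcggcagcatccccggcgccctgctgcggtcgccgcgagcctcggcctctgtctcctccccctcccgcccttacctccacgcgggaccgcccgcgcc

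In these windows SREBF2 had 1 sterol element with the letters TCACCCCAC, on the forward strand, whose first base lay 133 bases before the start, and 1 NF-Y box on the reverse strand 106 bases before it. INSIG1 had 1 E-box 55 bases before the start and 1 NF-Y box. STARD4 and SCD each had 2 NF-Y boxes on the forward strand, 161 and 130 bases before the start in STARD4 and 229 and 186 bases before it in SCD. Over the 8 members with an entry (11 start sites, FASN having none), the sterol element was in 1 window, the E-box in 2, the NF-Y box in 6 and the GC box GGGCGG, which SP1 binds, in 10. The same letters were found in 0.883%, 6.34%, 32% and 42.6% of 35116 windows of the same length before all annotated starts. A match is a match of letters only, and its absence says nothing of elements outside the window or with other letters.

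Depth was 2238569 to 3099769 tags per library in the 4 groups of 2, and 8688262 and 9016803 tags in the GFP and HuR siRNA libraries. Of 7 HEK293-like markers, IRS4, KRT18 and LIN28B were present in every library, at 13 to 6253, 45 to 347 and 6 to 1093 tags, and NEFM had 1 to 85. VIM had 0 tags in 1 untreated library, KRT8 0 to 8 tags throughout with 0 in 1 of the 254 nm libraries, and PAX2 0 in 1 of the 365 nm libraries. Of 6 markers of other cell types, PTPRC of blood cells had 0 to 1 tags and PECAM1 of endothelium 0 to 4, and only the fibroblast gene COL1A1 exceeded 50 tags in any library (27 to 206). Per library total, the 7 HEK293-like markers summed to 34.1 to 61.3 CPM in the 365 nm libraries, 147 to 181 in the 254 nm libraries and 341 to 513 in the 4SU and untreated libraries, and the 6 others to 14.8 to 36.2 CPM in all of these. Markers also moved with crosslinking. With 365 nm light in 4SU cells IRS4 fell by 3.56 ± 0.42 on the log2 scale and LIN28B fell by 2.45 ± 0.48, while KRT18 (1.52 ± 0.36), VIM (2.07 ± 0.67) and COL1A1 (2.08 ± 0.38) rose. With 254 nm light IRS4 fell by 2.15 ± 0.36 and LIN28B fell by 1.98 ± 0.43, and KRT18 rose by 2.28 ± 0.35. With 4SU alone none of the tested markers was called. Their part in the members' results was not tested. The crosslinked libraries stood apart from the rest in transcript length: the median tag lay on a transcript of 1147 to 1534 nt, against 2373 to 3029 nt in the 6 others. The part of this difference in the results was not tested, and values after a trend of level with transcript length was removed from each library are given as a comparison. In polyadenylated RNA of whole cultures, fewer cells and less RNA per cell cannot be told apart.

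Levels are given as counts scaled to library size (CPM) with factors from the trimmed mean of M-values (TMM), set separately for the siRNA pair. Between genes they are compared only per kilobase of transcript (CPM per kb). Log2 fold changes are given with their standard error (SE), and a gene was called at an adjusted p under 0.05 in edgeR's quasi-likelihood test, two-sided and adjusted over 13731 genes.

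In untreated cells, the 9 transcripts spanned a wide range. SCD, which desaturates stearate, averaged 130 ± 17.3 CPM per kb (SD, n = 2), and FASN, which builds palmitate, averaged 123 ± 52.2. INSIG1 followed at 102 ± 4.35, then SREBF2 at 24.4 ± 6.07 and SCAP at 21.5 ± 5.57. ACACA, the carboxylase that makes malonyl-CoA, averaged 11.1 ± 3.87, STARD4 averaged 8.39 ± 0.859, SREBF1 5.75 ± 2.38 and INSIG2 3.37 ± 0.438. The ranges of FASN overlapped those of SCD and INSIG1, SREBF2 overlapped SCAP, and ACACA overlapped STARD4, so these neighbours in the order were not separated beyond their spread. The lower INSIG1 value, 98.8, lay well above the higher SREBF2 value, 28.7. In the 4SU libraries INSIG1 averaged 27.7 ± 6.16 CPM per kb and its range, 23.3 to 32.0, overlapped that of SREBF2, 17.8 to 24.8. In the 4SU libraries crosslinked at 365 nm it stood at 19.1 ± 0.653, below SREBF2 (31.4 ± 8.93) and, with overlapping ranges, SCAP (20.6 ± 4.95), and the order again began with SCD (342 ± 43.0) and FASN (208 ± 122). After 254 nm light FASN led at 121 ± 10.9, and SCD (53.6 ± 7.55) and INSIG1 (50.4 ± 14.6) overlapped. In the single GFP siRNA library INSIG1 was highest at 169 CPM per kb, before SCD at 159 and FASN at 120, and in the HuR siRNA library FASN was highest at 166, before SCD at 129 and INSIG1 at 115.

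**Figure D1:**
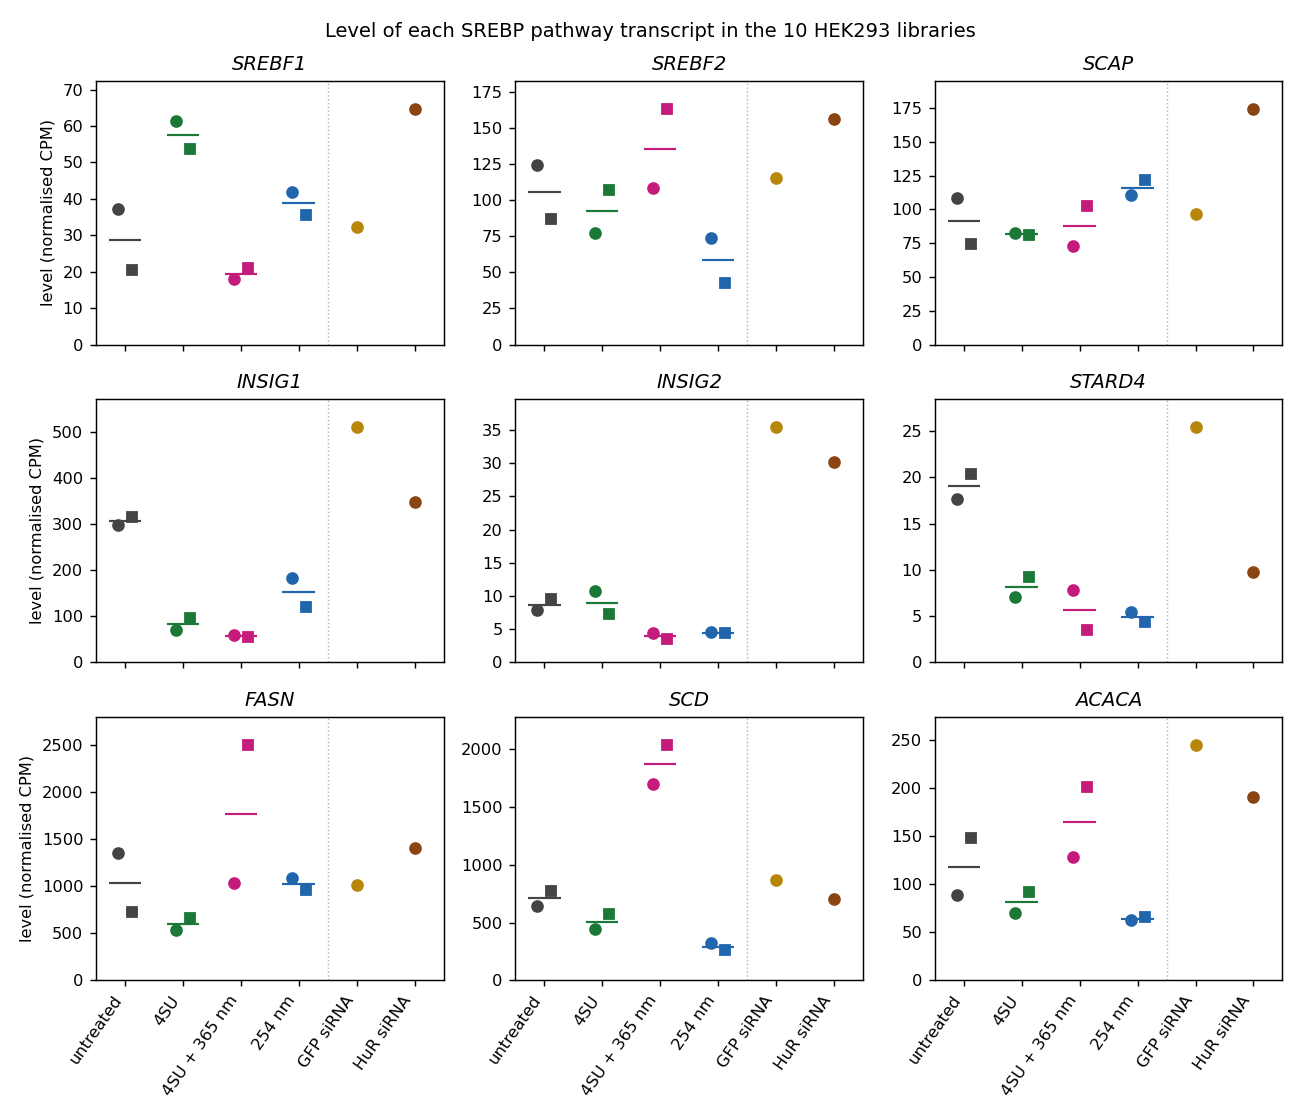
Level (normalised CPM, linear axis from 0) of each of the 9 transcripts in every library; circles are replicate A or the single siRNA library, squares replicate B, and short lines the mean of 2. To the right of the dotted line stands the siRNA pair, which was scaled separately. INSIG1 is at 299 and 317 CPM in untreated cells and at or under 96.7 in the 4 libraries fed 4SU, and SCD is at 1704 and 2037 CPM after 4SU and 365 nm light and at 264 to 871 CPM elsewhere.

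With 4SU feeding alone INSIG1 was the one member past the threshold, and STARD4 and SREBF1 narrowly missed it. It had 299 and 317 CPM in the untreated libraries A and B and 70.4 and 96.7 CPM in the 4SU libraries. Both 4SU libraries were far below both untreated ones. The log2 fold change was -1.88 ± 0.34 (SE; edgeR adjusted p = 0.000301), and it stayed past the threshold when any 1 of the 8 libraries was left out (-2.14 to -1.69). Of all 13731 genes, 3.69% were called lower and 3.85% higher in this comparison, beside 1 lower and 0 higher of 9 members. A count of 1 is a result about INSIG1 and not about the set. The median log2 fold change was -0.48 over the members and 0.02 over all genes tested.

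STARD4, which moves cholesterol between membranes, had 17.6 and 20.4 CPM in untreated cells and 7.07 and 9.18 CPM with 4SU. The groups did not overlap, but the log2 fold change of -1.21 ± 0.41 (SE) did not pass in the 8-library fit (edgeR adjusted p = 0.0609). SREBF1 had 37.2 and 20.4 CPM untreated and 61.3 and 53.8 CPM with 4SU. Here too the groups did not overlap and the test was missed (log2 fold change 0.99 ± 0.34, edgeR adjusted p = 0.0631). With the length trend removed both passed, STARD4 at -1.31 (edgeR adjusted p = 0.0232) and SREBF1 at 1.06 (edgeR adjusted p = 0.0361). The member count then went from 1 to 3, with no share of all genes for that setting beside it. With each of the 8 libraries left out in turn, STARD4 ranged from -1.43 to -1.06 and SREBF1 from 0.61 to 1.48.

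The remaining members differed by less under 4SU. SREBF2 had 124 and 87.1 CPM untreated and 77.2 and 107 CPM with 4SU, and SCAP 108 and 74.6 against 82.8 and 81.0 CPM. Their groups overlapped. INSIG2, the second retention factor, had 7.92 and 9.53 CPM untreated and 10.7 and 7.31 CPM with 4SU, a log2 fold change of 0.04 ± 0.43 beside -1.88 for INSIG1. The lipogenic enzymes had values of -0.79 ± 0.44 (FASN), -0.48 ± 0.39 (SCD) and -0.54 ± 0.33 (ACACA), none past the test. The groups of FASN and of SCD did not overlap, and those of ACACA did. FASN differed between the untreated libraries themselves, 1353 CPM in A and 727 CPM in B, which limits what this comparison can show for it.

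**Figure D2:**
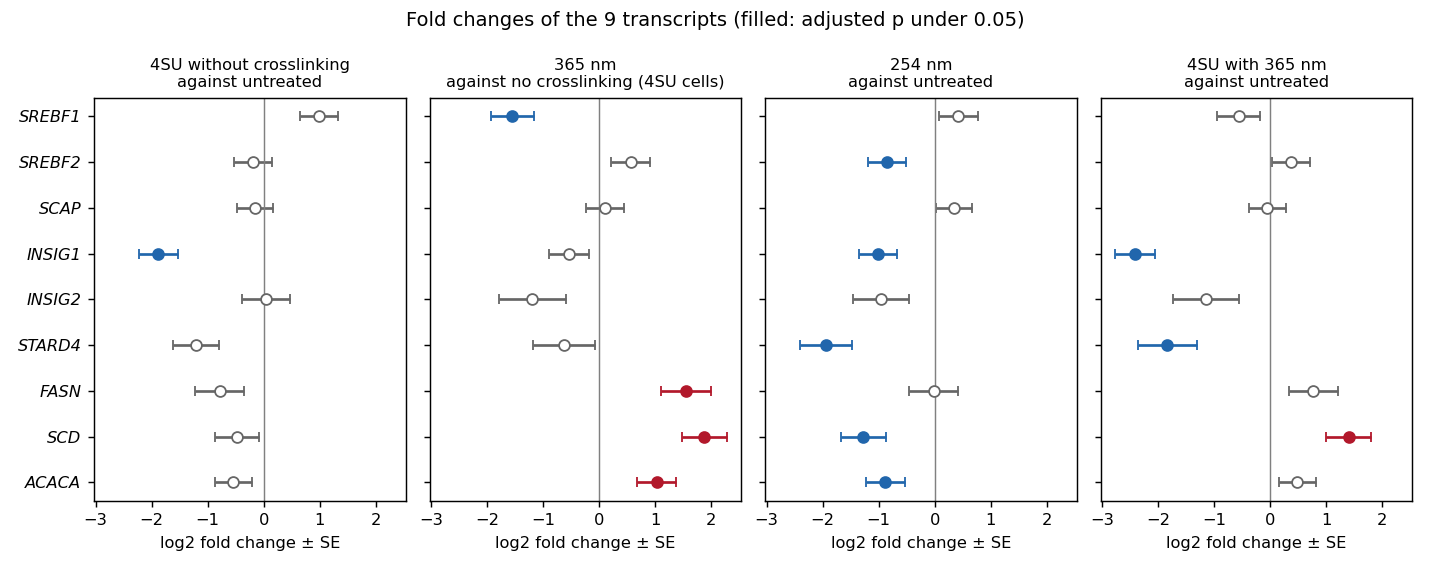
Log2 fold change of each member, with its SE, in 4 comparisons of the 8-library fit; filled points have an adjusted p under 0.05 (red higher, blue lower) and open points do not. INSIG1 is below 0 in all 4 panels and called lower in 3 of them, and FASN, SCD and ACACA are called higher with 365 nm light in 4SU cells.

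The other genes of the pathway were counted in the same comparison, in which 3.69% of all genes were lower and 3.85% higher. Their lists were written with earlier results of these data known, so the counts are a description. Of 20 sterol synthesis enzymes, 6 fell and 0 rose with 4SU, with a median log2 fold change of -0.69. SQLE, which makes squalene epoxide, had -2.88 ± 0.38, the isomerase IDI1 -2.77 ± 0.35 and HMGCS1, which makes HMG-CoA, -2.36 ± 0.35. Of 17 sterol transport and storage genes, 4 fell and 0 rose with a median of 0.01, among them the lysosomal cholesterol exporter NPC1 (-1.27 ± 0.33) and the oxysterol-binding relative OSBPL9 (-1.17 ± 0.33). Of 21 fatty acid and triglyceride synthesis genes, 4 fell and 0 rose with a median of -0.10, including the acyl-CoA synthetase ACSL3 (-1.46 ± 0.34), the acetyl-CoA synthetase ACSS2 (-1.21 ± 0.38) and malic enzyme ME1 (-1.05 ± 0.33). No gene passed among 20 SREBP processing and degradation factors (median -0.15) or 11 regulators and targets of the LXR and ChREBP systems (median 0.35).

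Crosslinking at 365 nm was compared within 4SU-fed cells, so this comparison shares the 4SU libraries with the preceding one. SCD had 441 and 576 CPM without and 1704 and 2037 CPM with 365 nm light. Both crosslinked libraries were far above both others, and the log2 fold change was 1.88 ± 0.41 (SE; edgeR adjusted p = 0.000154), or 2.92 with the length trend removed. FASN had 541 and 665 CPM without and 1032 and 2501 CPM with 365 nm light. It rose by 1.55 ± 0.45 (edgeR adjusted p = 0.00311), or 2.76 with the length trend removed, but the crosslinked libraries differed from each other, and without the 365 nm replicate B the value was 0.77 (edgeR adjusted p = 0.227). ACACA had 70.4 and 92.2 CPM without and 128 and 201 CPM with it, and rose by 1.02 ± 0.34 (edgeR adjusted p = 0.00981), or 2.28 with the length trend removed. Without the 365 nm replicate B it had 0.65 (edgeR adjusted p = 0.227) and without the 4SU replicate A 0.84 (edgeR adjusted p = 0.104).

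SREBF1 went the other way. It had 61.3 and 53.8 CPM in 4SU libraries without crosslinking and 17.9 and 20.9 CPM, from 16 and 30 tags, with 365 nm light. The groups were well apart and SREBF1 fell by 1.56 ± 0.38 on the log2 scale (edgeR adjusted p = 0.000719). When the tested genes were put in order of length and divided into 4 classes of near-equal number, the class of 4331 nt and more, which holds SREBF1, had a median of -1.38, and with the length trend removed SREBF1 had -0.59 and was no longer called (edgeR adjusted p = 0.199). SREBF2 had 108 and 163 CPM with 365 nm light, 0.56 ± 0.34 above the 4SU libraries and not called, but 1.44 and called with the length trend removed (edgeR adjusted p = 0.000472). SCAP went from 0.10 ± 0.33 to 0.96 in the same way (edgeR adjusted p = 0.0125).

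INSIG1 had 59.2 and 56.4 CPM, INSIG2 4.47 and 3.48 CPM and STARD4 7.82 and 3.48 CPM with 365 nm light, and none of them passed against 4SU alone. INSIG1 had -0.54 ± 0.35 in this comparison and 0.0049 with the length trend removed. INSIG2 stood on 4 and 5 tags and STARD4 on 7 and 5 tags in these libraries, where 3 tags amount to 3.35 and 2.09 CPM. In all, 3 of 9 members rose and 1 fell with 365 nm light. Of all genes, 26.1% were higher and 33.7% lower, so the share that rose is near the background, and the members' median of 0.10 stood beside -0.50 for all genes. These directions rest on the scaling. With plain library totals, which move the median of all genes to -2.39, 0 members were called higher and 7 lower, and SCD and FASN had -0.03 and -0.29, both still above that median. With the length trend removed 5 members were called higher and 0 lower, with upper-quartile factors 3 and 2. The shares of all genes are of the main fit, so member counts under any other setting have no background beside them.

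**Figure D3:**
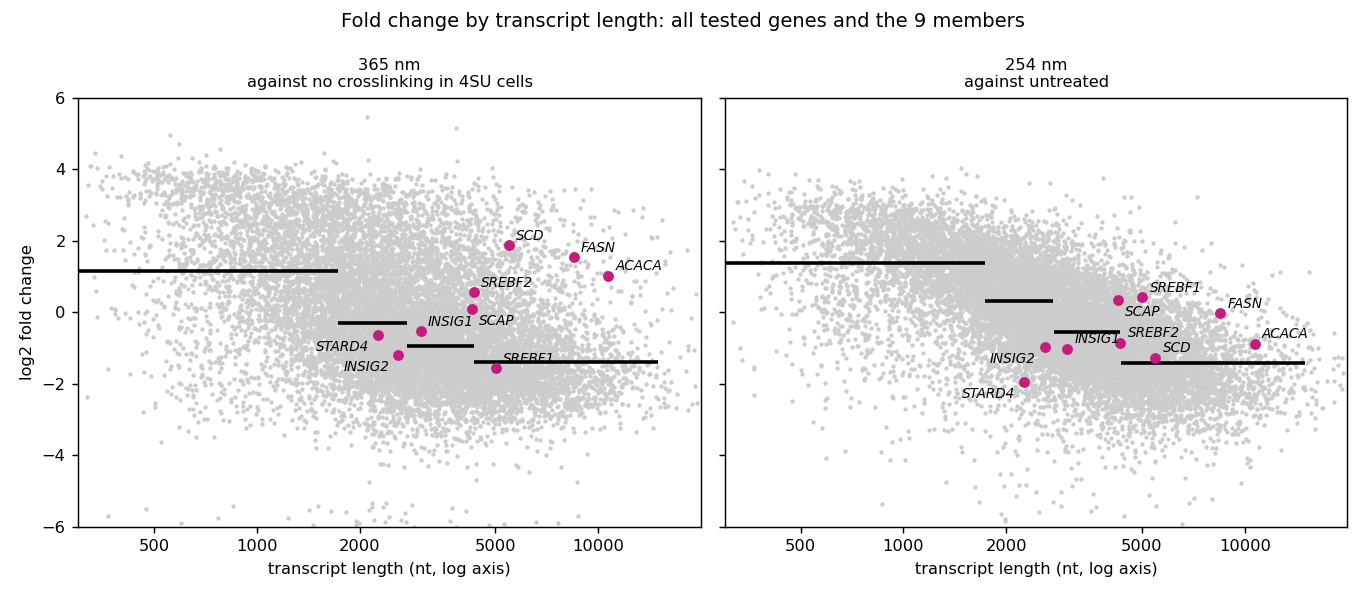
Log2 fold change against transcript length (log axis) for all tested genes (grey) and the 9 members (labelled), for 365 nm light in 4SU cells and for 254 nm light, with genes beyond the axes not drawn. Black bars are the medians of the 4 length classes, which run from 1.15 to -1.38 at 365 nm and from 1.37 to -1.43 at 254 nm, and SCD, FASN and ACACA lie above the bar of the longest class in the first panel.

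The next comparison shares its untreated libraries with that of 4SU alone. Against them, 254 nm light without 4SU gave 5 members lower and 0 higher, with 28% of all genes lower and 25.2% higher. STARD4 had 5.42 and 4.37 CPM, from 12 and 9 tags, against 17.6 and 20.4 CPM untreated, and fell by 1.94 ± 0.47 on the log2 scale (edgeR adjusted p = 0.000672). It stayed called without any 1 of the 8 libraries, and its length class, 1730 to 2753 nt, had a median of 0.31. INSIG1 had 183 and 121 CPM, below both untreated libraries, and fell by 1.02 ± 0.33 (edgeR adjusted p = 0.00984). Without the 254 nm replicate B it had -0.75 (edgeR adjusted p = 0.180).

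SCD had 323 and 264 CPM after 254 nm light against 642 and 776 CPM untreated, and fell by 1.27 ± 0.40 (edgeR adjusted p = 0.00709). SREBF2, with 74.1 and 42.7 CPM, fell by 0.85 ± 0.35, and ACACA, with 62.4 and 66.0 CPM, fell by 0.88 ± 0.34. SCD lost its call without the 254 nm replicate B (-1.14), SREBF2 without that library (-0.51) or untreated replicate A (-0.58), and ACACA without 254 nm replicate A (-0.79) or B (-0.93) or untreated replicate B (-0.48). These 3 transcripts are 4325 nt (SREBF2), 5473 nt (SCD) and 10692 nt (ACACA) long. The length class of SCD and ACACA had a median of -1.43 and that of SREBF2, 2754 to 4327 nt, a median of -0.55. SREBF2 lies at the upper edge of its class. Genes within 10% of the member's own length had medians of -0.95 (SREBF2), -1.34 (SCD) and -1.90 (ACACA). With the length trend removed SCD had -0.09 and SREBF2 -0.01, neither called, and ACACA had 0.78 and was called higher (edgeR adjusted p = 0.0351). FASN, of 8481 nt, had 1089 and 959 CPM after 254 nm light, inside the untreated range of 727 to 1353 CPM, and with the length trend removed 1.41 (edgeR adjusted p = 0.00669). SREBF1 (42.0 and 35.5 CPM), SCAP (111 and 121 CPM) and INSIG2 (4.52 and 4.37 CPM, 10 and 9 tags) were not called at 254 nm. The members' median was -0.88 and that of all genes -0.14. Without the 254 nm replicate B only STARD4 was still called among the members. With the length trend removed the split was 4 higher and 2 lower (INSIG1 at -0.76 and STARD4 at -2.19), and with library totals, which move the median of all genes to -0.99, it was 0 and 7.

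A test of the difference between the 365 nm change in 4SU cells and the 254 nm change in cells without 4SU called 3 members higher and 1 lower, against 9.99% and 7.08% of all genes. SCD had a difference of 3.15 ± 0.57 (SE; edgeR adjusted p = 8.75e-05), and it was called in all 8 fits with 1 library left out (2.98 to 3.36). ACACA had 1.91 ± 0.48 (edgeR adjusted p = 0.00470) and SREBF2 1.42 ± 0.49 (edgeR adjusted p = 0.0383), the latter called in 4 of those 8 fits and lost without 365 nm replicate B (1.09), 4SU replicate A (1.21), 254 nm replicate B (1.08) or untreated replicate A (1.14). ACACA lost its call without 365 nm replicate B (1.54, edgeR adjusted p = 0.0802). SREBF1 had -1.97 ± 0.52 (edgeR adjusted p = 0.00627) and was called in all 8. Removing the length trend left the split at 3 and 1, while library totals gave 1 and 1. In this test 4SU feeding and the wavelength change together, so they cannot be told apart.

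Set against untreated cells, the whole procedure of 4SU with 365 nm light gave the largest difference of any member in INSIG1, with 59.2 and 56.4 CPM against 299 and 317 CPM. It fell by 2.41 ± 0.36 on the log2 scale (edgeR adjusted p = 3.71e-07). STARD4 had 7.82 and 3.48 CPM against 17.6 and 20.4 CPM and fell by 1.84 ± 0.53 (edgeR adjusted p = 0.00299), but without the 365 nm replicate B it had -1.29 (edgeR adjusted p = 0.123). SCD rose by 1.40 ± 0.40 (edgeR adjusted p = 0.00292). SREBF1 had -0.57 ± 0.39, not called, and 0.47 with the length trend removed, also not called. So 1 member was higher and 2 lower, with 26.3% of all genes higher and 32.6% lower. This comparison shares its libraries with those of 4SU alone and of 365 nm light, so it is no separate support for them. Library totals gave 0 higher and 8 lower, DESeq2 gave 2 and 2, and removing the length trend gave 5 and 2.

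Ratios between transcripts of 1 library do not depend on its scaling, but they are not free of its trend with transcript length. The part of length in them was not tested. INSIG1 had 37.7 and 33.3 tags for each INSIG2 tag in untreated cells and 40.6 and 27.7 after 254 nm light, but 6.55 and 13.2 with 4SU and 13.3 and 16.2 with 4SU and 365 nm light. All 4 libraries fed 4SU were below all 4 libraries without it, but INSIG2 stood on few tags in the crosslinked libraries. It had 4 and 5 tags with 4SU and 365 nm light and 10 and 9 tags after 254 nm light, so counting error in these ratios is large. The siRNA libraries, not fed 4SU, had ratios of 14.4 (GFP) and 11.5 (HuR), inside the range of the 4SU libraries. Their INSIG2 levels of 35.4 and 30.1 CPM were above the 7.92 and 9.53 CPM of untreated cells, on separately set scales. SREBF2 had 3.34 and 4.27 tags per SREBF1 tag in untreated cells, 1.26 and 1.99 with 4SU, 1.76 and 1.21 after 254 nm light and 6.06 and 7.80 with 4SU and 365 nm light. The last pair was above every other library and the 4SU and 254 nm pairs were below the untreated pair. SCD had 13.3 and 10.1 tags per ACACA tag with 4SU and 365 nm light and 3.56 to 7.20 in the other 8 libraries. Per FASN tag it had 1.65 and 0.81 with 4SU and 365 nm light and 0.47 and 1.07 in untreated cells. These ranges overlapped.

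**Figure D4:**
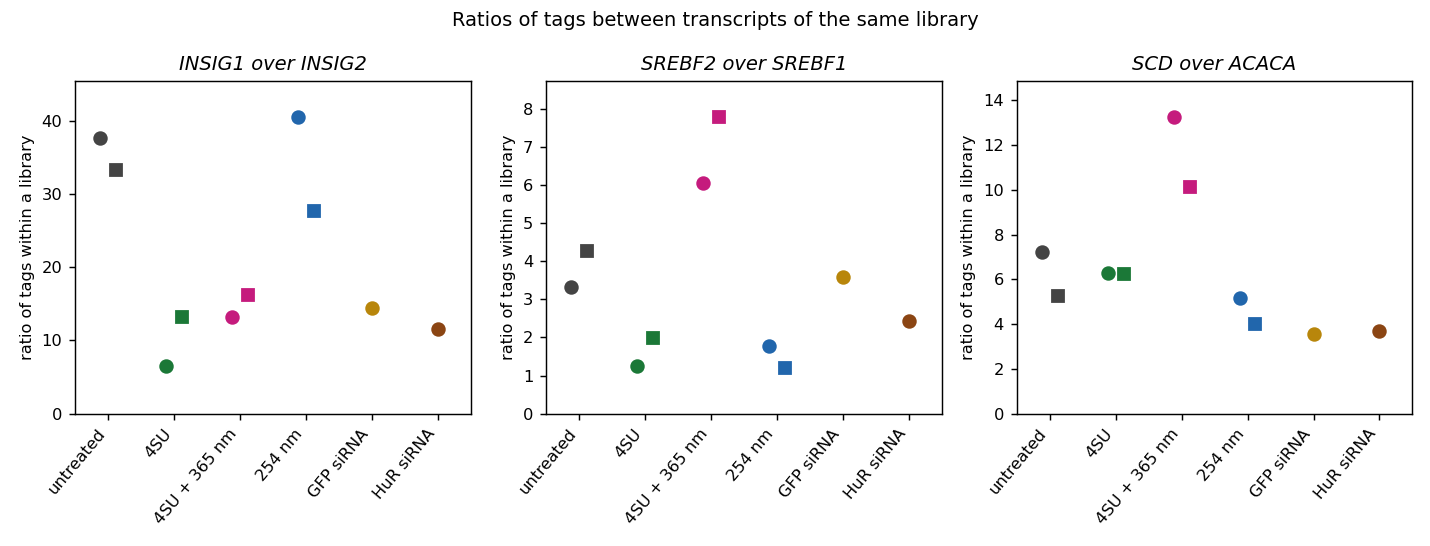
Ratio of tags of INSIG1 over INSIG2, SREBF2 over SREBF1 and SCD over ACACA in each library (linear axes from 0; circles replicate A or the single siRNA library, squares replicate B). The INSIG1 ratio is 27.7 to 40.6 in the untreated and 254 nm libraries and 6.55 to 16.2 in the others. It rests on 4 and 5 INSIG2 tags in the 365 nm libraries and 10 and 9 in the 254 nm libraries. The other ratios are highest in the 4SU libraries crosslinked at 365 nm.

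The siRNA pair asks how the members stood after HuR was depleted. ELAVL1 itself had 1905 tags with the GFP siRNA and 638 tags with the HuR siRNA, a log2 ratio of -1.54 (95% counting interval -1.67 to -1.41). With 1 library per siRNA there is no replicate check and no test, the intervals cover counting error only, and a fold past 2 was the size rule. STARD4 was the one member past it, with 228 tags (25.4 CPM) in the GFP library and 85 tags (9.74 CPM) in the HuR library, a log2 ratio of -1.36 (interval -1.76 to -1.02). Of 17798 genes, 6.37% were lower and 4.4% higher by more than 2-fold, so a single member past the rule says little of the 9 as a set.

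SREBF1 stood just inside the rule, with 290 and 564 tags and a log2 ratio of 0.99 (interval 0.79 to 1.21), of which 0.50 of a tag in the HuR library was a split tag. SCAP had 868 and 1519 tags (0.85, interval 0.73 to 0.97) and SREBF2 1037 and 1366 tags (0.44, interval 0.32 to 0.56). None of these 3 passed the size rule. INSIG1 had 4588 and 3037 tags (-0.56, interval -0.62 to -0.49), and INSIG2 318 and 263 tags (-0.23, interval -0.48 to 0.01), whose interval includes 0. Among the enzymes FASN was higher (0.48, interval 0.44 to 0.52), and SCD (-0.30, interval -0.35 to -0.25) and ACACA (-0.36, interval -0.45 to -0.27) were lower. The members' median was -0.23, beside -0.00235 for all genes with at least 10 tags. Among the pathway lists, 0 of 20 sterol synthesis enzymes and 0 of 11 LXR and ChREBP genes were past 2-fold in either direction. Past it were 1 of 20 SREBP processing factors (lower), 2 of 19 sterol transport genes (both lower) and, of 21 fatty acid and triglyceride genes, 1 higher and 2 lower.

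**Figure D5:**
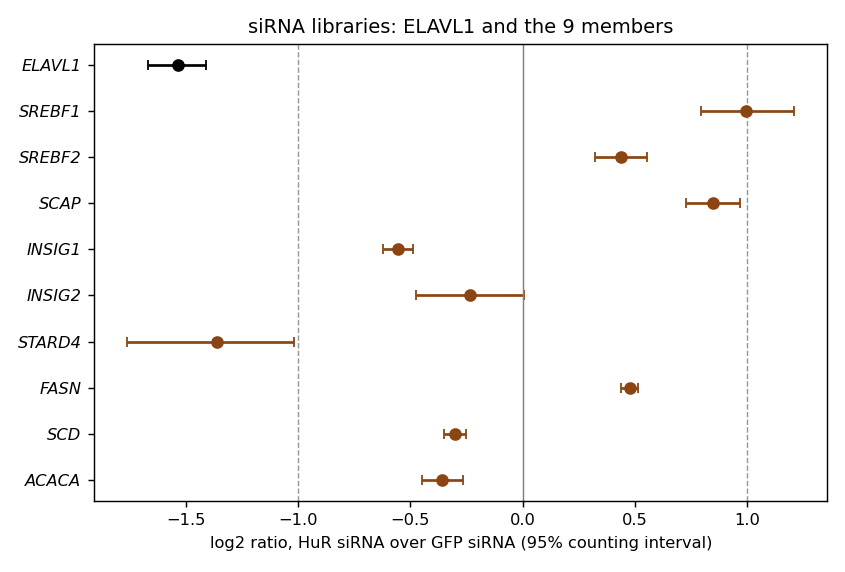
Log2 ratio of the HuR siRNA library over the GFP siRNA library for ELAVL1 and the 9 members; bars are 95% counting intervals and dashed lines mark 2-fold. STARD4 at -1.36 is the one member outside the dashed lines, with SREBF1 at 0.99 just inside.

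The genes whose levels followed the regulators most closely over the 10 libraries were ranked by Pearson's r of log2 CPM among 6864 genes of above-median expression. The 10 points share their scaling and fall into 6 groups, so r is a description. For INSIG1 they included HMGCS1 (0.971) and the ribosome export factor NMD3 (0.956). For SREBF1 they were the protease USP21 (0.947), a transcript with the RefSeq accession XM_002344941 (0.944) and ARHGEF18 (0.942), and for SREBF2 they were ATF6B (0.942), TTYH3 (0.913) and SLC7A8 (0.912). Among the members, the r largest in size were those of SREBF2 with SCD (0.793), SCD with ACACA (0.786) and SREBF1 with ACACA (-0.785). INSIG1 and STARD4 had 0.682, and INSIG1 and INSIG2 0.585.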

How the data were processed

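Each of the 10 libraries came as a table of transcripts with a length and an estimated count of tags, deposited by the authors without normalization, per the file headers. Counts need not be whole, because some tags were split between transcripts; a part of a tag was involved in 1 library each for SREBF1, INSIG1 and FASN, 2 for STARD4 and 5 for ACACA. For the aligner, build, annotation release, strand setting and library kit, nothing is stated in the labels or headers (not given in the sources used here). Transcript accessions were named through RefSeq and GENCODE tables (15886 and 134 of 25005 transcripts; 8985 kept their accession).

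Expected counts were rounded to whole tags, filtered with filterByExpr (13731 genes left, all 9 members among them) and fitted with edgeR 4.0.16 in R 4.3.3 (TMM factors, quasi-likelihood F test, 1 mean per group over 8 libraries, 4 residual and 40.16 prior degrees of freedom), with Benjamini-Hochberg adjustment over all genes. The SE was taken as the absolute log2 fold change over the root of the F statistic. The script was tested on simulated data. Nothing in the labels says that replicates A and B came from separate cultures, so p-values measure the spread between these libraries, which may be technical. Replicates differed by more than sampling noise (chi-square per degree of freedom 9.30 to 15.2). The siRNA pair was scaled on its own, with a prior count of 2 and an exact 95% interval for the ratio of 2 Poisson counts. Splitting of tags, PCR copies and the absence of molecular identifiers mean that intervals cover counting error only.

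Alternatives were RLE and upper-quartile factors, library totals, no filter or a filter of 5 CPM, DESeq2 1.42.0, the compared groups alone, a replicate block, removal from each library of a lowess trend (span 0.3) of log2 level on log2 transcript length, a threshold of 0.01 on the adjusted p, and 8 fits that each dropped 1 library. All members are named. Genes of the pathway lists were named if called, of above-median expression and with groups that did not overlap. At most 3 were named per list and comparison, by size of change. Neither counts nor genes of these lists are reported for 4SU with 365 nm light against untreated or for the difference of the changes. After crosslinking at either wavelength, the sterol transport and storage list and the LXR and ChREBP list are not reported. The 3 genes most like SREBF1, SREBF2 and INSIG1 by Pearson's r were named, except 1 that is not reported here. The members and lists were chosen with earlier results of these data known. Figures were drawn with matplotlib 3.10.9.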

Additional observations from a re-analysis of the deposited data

Results flagged for a closer look

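For 4 members the change with 365 nm light in 4SU cells differed from the change with 254 nm light in cells without 4SU, by edgeR's test of that difference adjusted over all genes. In this test 9.99% of all genes were higher and 7.08% lower. 4SU feeding and the wavelength change together in it, so they cannot be told apart. SCD differed by 3.15 ± 0.57 on the log2 scale (SE; adjusted p = 8.75e-05): it was higher in both 365 nm libraries than in both 4SU libraries, and lower in both 254 nm libraries than in both untreated ones. ACACA differed by 1.91 ± 0.48 (adjusted p = 0.0047) and SREBF2 by 1.42 ± 0.49 (adjusted p = 0.0383). SREBF1 differed in the other direction, by -1.97 ± 0.52 (adjusted p = 0.00627), with 16 and 30 tags in the 365 nm libraries. The crosslinked libraries were also the ones rich in short transcripts, and the part of length in these differences was not tested. With the length trend removed, the falls of SREBF1 at 365 nm and of SCD and SREBF2 at 254 nm lost their calls. SREBF2 at 365 nm gained a call, and ACACA at 254 nm went from called lower to called higher. All 4 differences were still called with that trend removed. With library totals 2 of them were called (SCD and SREBF1), SREBF2 was called in 4 of the 8 fits that left out 1 library, and ACACA was lost without 365 nm replicate B (1.54).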

How the results depend on the processing

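Members on few tags limit the depth of these results: INSIG2 and STARD4 had at most 12 tags in every crosslinked library, so smaller changes were not detectable there. INSIG1 kept its call with 4SU, alone or with 365 nm light, under every alternative run.

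Counts of called members under the alternatives are given without the share of all genes called under the same setting. Plain library totals gave 7 called members for 365 nm light, 8 for 4SU with 365 nm light against untreated and 2 for the difference of the changes. With them, values turned sign for SREBF2 (-1.33), SCAP (-1.78), FASN (-0.29), SCD (-0.03) and ACACA (-0.86) at 365 nm, for SREBF1 (-0.43) and SCAP (-0.53) at 254 nm, for SREBF2 (-1.47), FASN (-1.03), SCD (-0.46) and ACACA (-1.34) with 4SU and 365 nm light against untreated, and for INSIG1 (-0.62) in the difference. These totals moved the median of all genes to -2.39 at 365 nm, against -0.50 with TMM.

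With the length trend removed, 3 members were called with 4SU and 7 with 4SU and 365 nm light. Signs turned for INSIG2 with 4SU (-0.05), INSIG1 at 365 nm (0.0049), FASN (1.41) and ACACA (0.78) at 254 nm, SREBF1 (0.47) and SCAP (0.85) with 4SU and 365 nm light, and INSIG2 in the difference (0.15). A replicate block gave 3 called members with 4SU (SREBF1 at 1.02 and STARD4 at -1.21 joined INSIG1), and changed no other count of members beyond 1.5 times. The letters A and B are not stated to pair the libraries, and deviations of same-lettered libraries correlated at -0.081 to 0.346. The replicate block with the length trend removed gave 3 and 7 again, and signs turned for INSIG2 (-0.05), INSIG1 (0.0035), FASN (1.42), ACACA (0.78), SREBF1 (0.56), SCAP (0.86) and INSIG2 in the difference (0.17).

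No expression filter gave 2 called members with 4SU. DESeq2 and an adjusted p under 0.01 each gave 3 at 254 nm. FASN at 254 nm turned to 0.03 with RLE factors and with DESeq2, SCAP with 4SU and 365 nm light turned to 0.18 with both and to 0.02 with the compared groups alone, SCAP at 365 nm to -0.03 with upper-quartile factors, and INSIG2 with 4SU to -0.01 with no filter. The cause was not tested.

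With each library left out in turn, 1 to 3 members were called with 4SU, 2 to 4 at 365 nm, 1 to 5 at 254 nm, 2 to 5 with 4SU and 365 nm light against untreated and 2 to 5 in the difference. The lowest counts came without 365 nm replicate B (365 nm and difference) and 254 nm replicate B (254 nm), the highest without untreated replicate A (4SU) and untreated replicate B (4SU and 365 nm light against untreated). Values that crossed 0 were, with 4SU, SREBF2 (-0.46 to 0.07), SCAP (-0.42 to 0.12) and INSIG2 (-0.27 to 0.30). They were SCAP at 365 nm (-0.18 to 0.33), FASN at 254 nm (-0.41 to 0.49), SCAP (-0.35 to 0.23) and FASN (-0.03 to 1.27) with 4SU and 365 nm light, and INSIG2 (-0.49 to 0.07) and SCAP (-0.52 to 0.02) in the difference. The siRNA count of 1 member stayed at 1 under its 3 alternatives.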

Other observations

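After crosslinking, genes of the same lists went in both directions. With 365 nm light in 4SU cells, 6 of 20 sterol synthesis enzymes rose and 6 fell, with the prenyl synthase FDPS at 2.89 ± 0.39, the thiolase ACAT2 at 2.41 ± 0.37 and the kinase PMVK at 2.29 ± 0.35 (log2 fold change ± SE; edgeR). Of 21 fatty acid and triglyceride genes 6 rose and 7 fell, with the desaturases FADS2 (2.50 ± 0.39) and FADS1 (2.49 ± 0.37) and ACSS2 (1.98 ± 0.40) among those that rose. Of 20 SREBP processing factors 5 rose and 8 fell, with PGRMC1 at 2.77 ± 0.41, UFD1 at 2.53 ± 0.36 and ERLIN1 at -2.59 ± 0.45. These shares stand beside 26.1% of all genes higher and 33.7% lower. The median change of all genes ran from 1.15 in the class of shortest transcripts to -1.38 in the longest. The values of these pathway genes are given without removal of the length trend, and the part of length in them was not tested.

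With 254 nm light, 7 of 20 sterol synthesis enzymes rose and 7 fell, including LBR at -2.36 ± 0.37, PMVK at 2.09 ± 0.35 and HMGCS1 at -1.98 ± 0.35. Of 21 fatty acid and triglyceride genes 3 rose, among them AGPAT2 (2.72 ± 0.37) and MCAT (2.14 ± 0.35), and 10 fell, among them SCD5 (-1.55 ± 0.43). Of 20 processing factors 3 rose, including TMUB1 (2.66 ± 0.35), and 8 fell, including the importin KPNB1 (-1.94 ± 0.41) and the site-2 protease MBTPS2 (-1.78 ± 0.40). Over all genes 25.2% were higher and 28% lower, and the median change ran from 1.37 in the class of shortest transcripts to -1.43 in the longest. Here too the part of length was not tested.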
